A study of Mus musculus with 30 samples.

Results

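Complement is a cascade of plasma proteins that tags microbes and damaged cells, and 6 of its genes, C3, C4b, C1s1, C1ra, Cfb and Serping1, were followed here in mesenchymal cells of the mouse intestine. They were picked by gene symbol, with earlier results of these data known, and were found in every table of the series, as 6 of 20093 genes in all. The study compared cells of C57BL/6 mice that carry ColVI-cre, a Cre recombinase under a promoter of a collagen VI gene, together with the Rosa mTmG reporter. With that reporter a cell turns green (GFP) once Cre has acted in it or in a cell it came from, and otherwise stays red (Tomato). Every group shares these alleles, so the colour records past and present activity of that promoter, and it is no label of one cell type. From mice with colitis induced by DSS (dextran sulfate sodium, which injures the colon epithelium) there were GFP-positive, GFP-negative and unsorted colon cells, and the same 3 groups came from normal colon. From the normal small intestine there were GFP-high, GFP-low, GFP-negative and unsorted cells. The labels name 3 replicates for each of the 10 groups, and 29 of the 30 samples were analysed here, with 2 for unsorted small intestine. Neither the age of the mice, nor the DSS dose and duration, nor which samples share a mouse is given in the sources used here, so p-values measure the spread between these samples.

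Complement can start by several routes that meet at C3. In the classical route the proteases C1r and C1s, bound to C1q, cleave C4 and C2, and in the alternative route factor B binds to deposited C3 and forms the enzyme that cleaves more C3. C1 inhibitor, the product of Serping1, blocks C1r and C1s. The liver makes most of these proteins in plasma, and fibroblasts and other tissue cells make some of them locally. In the mouse, C1ra and C1s1 encode C1r and C1s, C4b encodes complement C4, and Cfb encodes factor B.

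On mm10, the build of the deposited tables, 3 of the genes lie on chromosome 17 and 2 are neighbours on chromosome 6. C3 spans chr17:57203970-57228136 on the minus strand. C4b spans chr17:34728380-34743882 and Cfb chr17:34856374-34862518, both on the minus strand within the major histocompatibility complex. C1s1 spans chr6:124530345-124542359 on the minus strand and C1ra chr6:124512405-124523443 on the plus strand. Serping1 spans chr2:84765387-84775444 on the minus strand.

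Promoter windows are shown because C3 and C1ra were higher in DSS cells while C1s1, the neighbour of C1ra, did not pass the test. They run from 250 bases before to 50 bases after a transcript start and come from RefSeq (GRCm38.p6), which listed a window for 3 of the 6 genes. Capitals mark matches on either strand to TTNNGNAA, letters common in sites of C/EBP factors, and to the palindrome TTCNNNGAA.
C3 (chr17:57228087-57228386, minus strand): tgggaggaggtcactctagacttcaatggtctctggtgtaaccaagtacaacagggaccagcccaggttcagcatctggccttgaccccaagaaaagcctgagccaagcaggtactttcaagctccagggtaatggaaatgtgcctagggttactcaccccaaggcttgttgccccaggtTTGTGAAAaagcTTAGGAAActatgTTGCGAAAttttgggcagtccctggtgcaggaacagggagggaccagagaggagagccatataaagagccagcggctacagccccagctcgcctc
C1s1 (chr6:124542310-124542609, minus strand): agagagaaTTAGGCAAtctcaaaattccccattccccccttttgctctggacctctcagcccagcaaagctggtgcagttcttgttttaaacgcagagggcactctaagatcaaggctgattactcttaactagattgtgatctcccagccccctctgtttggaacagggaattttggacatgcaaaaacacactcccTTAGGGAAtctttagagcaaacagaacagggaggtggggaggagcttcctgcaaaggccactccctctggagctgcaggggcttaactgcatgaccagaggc
C1ra (chr6:124512371-124512670, plus strand): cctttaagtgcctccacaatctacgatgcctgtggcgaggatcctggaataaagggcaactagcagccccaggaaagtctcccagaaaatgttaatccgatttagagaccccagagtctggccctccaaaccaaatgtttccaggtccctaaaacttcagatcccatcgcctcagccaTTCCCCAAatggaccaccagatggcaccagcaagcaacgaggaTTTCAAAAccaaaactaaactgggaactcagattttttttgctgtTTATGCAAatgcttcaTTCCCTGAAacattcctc
The C3 window held 3 matches to TTNNGNAA, which began at -70, -58 and -45, counted from 0 at the transcript start. The C1s1 window held such matches at -242 and -52, and that of C1ra at -72, -29 and 16. A second, overlapping C1s1 window (chr6:124542272-124542571) is not shown and held a match at -90 from its own start. The C1ra window begins close to the start of the C1ra span given above. Most of its bases, those of these matches among them, thus lie within that span. TTCNNNGAA matched once, in C1ra, from 32 to 40. Neither a consensus of interferon response elements nor the one for NF-kB matched in these windows. Of 32851 promoter windows of the same length, 40.7% held TTNNGNAA, 8.3% TTCNNNGAA, 3.44% the interferon consensus and 8.46% the NF-kB consensus. No match of TTNNGNAA overlapped one of TTCNNNGAA in the windows shown. A match is a string of letters and was not tested for binding.

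Levels are given as the normalised read counts the authors deposited, rounded by them to whole numbers. The library method reads the 3' end of each transcript, so a count stands for a transcript and carries no factor of gene length. Total normalised counts per library ran from 2137947 to 4437152, and the reads behind them were estimated at 1228000 to 4416000 in the 25 libraries where the value of 1 read could be resolved. Normal colon, DSS colon and small intestine were each scaled apart, and levels set across these scales below are untested. The 12 sorted colon libraries share a further scale, used for DSS against normal cells. Of 11 mesenchymal marker genes 11 were listed, with summed levels of 9252 to 28028 CPM, which is normalised counts scaled to one same total per library, in the sorted colon libraries. The common leukocyte gene Ptprc averaged 3.67 to 6.67 normalised counts in these groups. Other leukocyte RNA was present: the 10 lymphocyte and plasma cell markers summed to 10.1 to 59.6 CPM in GFP-positive DSS, 62.5 to 195 in GFP-negative DSS, 18.9 to 107 in GFP-positive normal and 235 to 1060 in GFP-negative normal libraries, with 6, 4, 3 and 4 of them averaging under 1 count or not listed, Cd3e and Cd3g of T cells each time.

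All 6 genes were read well above 0 in each library (plot of all libraries). In CPM, C3 was highest in GFP-negative cells of the small intestine, at 4913 to 5535, and lowest in unsorted cells of the normal colon, at 104.9 to 283.5. That lowest range held the 153.2 to 248.5 of GFP-positive normal colon. C4b was also highest in GFP-negative small intestine, at 3088 to 4807, and its range did not overlap that of the next group. By mean, C1s1, C1ra and Serping1 were highest in GFP-low cells of the small intestine, at 1303 to 1496, 1062 to 2551 and 1383 to 1731. The C1ra range held the 1203 to 1440 of GFP-negative DSS colon. Cfb was highest in GFP-negative cells of the DSS colon, at 2286 to 3437, overlapping the 2023 to 2816 of GFP-low small intestine. Its lowest group was GFP-positive cells of the normal colon, at 28.64 to 64.5. By mean count, C3 ranked number 9 of 16529 listed genes in GFP-negative small intestine and number 21 of 17143 in GFP-negative DSS colon.

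**Figure D1:**
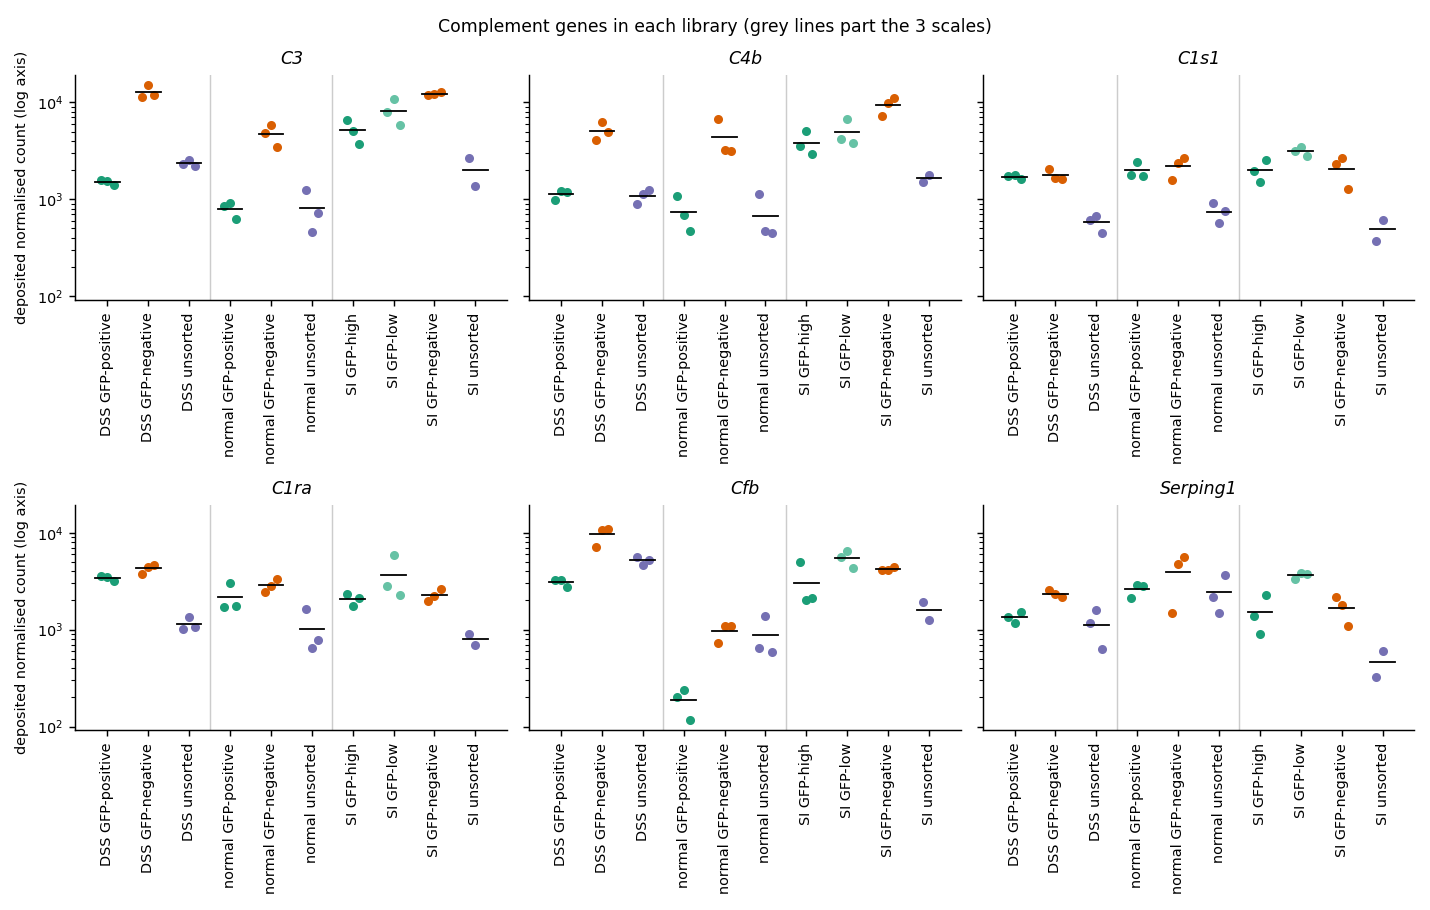
Each point is 1 library, on a log axis of the deposited normalised count, and lines mark group means; SI is small intestine and grey lines part the 3 separately scaled sets. Cfb in GFP-positive cells lies between 2743 and 3279 in DSS colon and between 117 and 237 in normal colon, while C3 in GFP-negative small intestine lies between 11801 and 12710.

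The 6 genes can also be read as shares of their summed count. On the count scale, which has no length factor, Cfb was 25.3% ± 1.5 of the summed counts of the 6 genes in GFP-positive DSS cells and 2.17% ± 0.56 in GFP-positive normal cells (SD, n = 3 each). The share of Serping1 was 11% ± 1.9 in these DSS cells and 31.0% ± 5.4 in the normal ones. In GFP-negative cells the share of Cfb was 26.6% ± 3.6 with DSS and 5.05% ± 0.82 without, and that of Serping1 was 6.67% ± 1.4 with DSS and 20.4% ± 11 without (SD, n = 3 each). Shares are tied to each other, since they sum to a whole, and were not tested. Summed over the 6 genes, counts were 3803 to 4043 CPM in GFP-positive DSS cells against 1825 to 2781 in GFP-positive normal cells, and 9897 to 11471 in GFP-negative DSS cells against 4355 to 4779 in GFP-negative normal cells.

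The comparison of DSS with normal cells asked how the sorted populations differ in colitis. In GFP-positive cells Cfb, C3, C1ra and C4b were higher with DSS, Cfb by 23.2-fold and the other 3 by 2.12-fold to 2.65-fold as ratios of mean levels. In GFP-negative cells Cfb was higher by 13.8-fold, C3 by 3.81-fold and C1ra by 2.08-fold. C1s1 and Serping1 passed the test in neither population. Values below are on the scale shared by the 12 sorted colon libraries, given for replicates 1, 2 and 3. Log2 changes are differences of mean log2(count + 1), DSS over normal, tested with limma across all genes with Benjamini-Hochberg adjustment and a threshold of 0.05. In bulk RNA, more cells of a type and more RNA per cell cannot be told apart. In the sample titles, the DSS and the normal colon libraries form separate number series. In every contrast of DSS with normal cells, DSS and any difference between these series therefore cannot be told apart.

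C1ra, the first protease of the classical route, had 4197, 4089 and 3700 counts in GFP-positive DSS cells, against 1423, 2561 and 1488 in GFP-positive normal cells. The ranges did not overlap. The log2 change was 1.18 with an SE of 0.24 (adjusted p = 0.00497). In GFP-negative cells C1ra had 4440, 5237 and 5401 counts with DSS, against 2060, 2367 and 2827 without. All 3 DSS libraries again lay above all 3 normal ones, with a change of 1.06, SE 0.27 (adjusted p = 0.0275). This call was lost without GFP-negative normal library 2 (adjusted p = 0.0847), DSS library 2 (0.132) or DSS library 3 (0.13), at log2 changes of 1.05, 1.03 and 1.01.

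C1s1, which encodes the protease that C1r activates, had 2019, 2119 and 1905 counts in GFP-positive DSS cells, against 1476, 2038 and 1476 in GFP-positive normal cells. Normal library 2 lay within the DSS range. In GFP-negative cells the DSS libraries had 2434, 1965 and 1897 counts and the normal ones 1347, 1989 and 2253, so that the groups overlapped. The log2 changes were 0.29 (95% interval -0.15 to 0.73, adjusted p = 0.332) in GFP-positive and 0.20 (-0.42 to 0.81, adjusted p = 0.693) in GFP-negative cells. The intervals leave room for a change of up to 0.81 on the log2 scale.

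C4b, which encodes the C4 that C1s cleaves, had 1140, 1431 and 1405 counts in GFP-positive DSS cells, against 900, 577 and 399 in GFP-positive normal cells. The groups did not overlap and the log2 change was 1.15, SE 0.27 (adjusted p = 0.0103), but without DSS library 2 it was 1.10 and missed the threshold (adjusted p = 0.0538). In GFP-negative cells C4b had 4777, 7318 and 5760 counts with DSS, against 5671, 2727 and 2676 without. Normal library 1 lay inside the DSS range, and the change of 0.76, SE 0.34, did not pass (adjusted p = 0.176). Without that library the change was 1.12 (adjusted p = 0.0118).

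C3, on which all routes meet, had 1869, 1822 and 1640 counts in GFP-positive DSS cells, against 718, 765 and 527 in GFP-positive normal cells. Each DSS library exceeded each normal one (log2 change 1.42, SE 0.21, adjusted p = 0.000589). In GFP-negative cells C3 had 13421, 17917 and 14008 counts with DSS, against 4071, 4911 and 2912 without. These groups were also apart, with a log2 change of 1.95, SE 0.30 (adjusted p = 0.00204). Both calls held in 24 of 24 alternative fits, omissions of 1 library among them.

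Cfb, the protease subunit of the alternative route, had 3803, 3852 and 3212 counts in GFP-positive DSS cells, against 170, 199 and 99 in GFP-positive normal cells. In GFP-negative cells it had 8439, 12588 and 12886 counts with DSS, against 618, 919 and 919 without. Every DSS library was far above every normal one in both populations. The log2 changes were 4.58, SE 0.25 (adjusted p = 1.21e-07) in GFP-positive and 3.78, SE 0.29 (adjusted p = 1.73e-05) in GFP-negative cells. Over the alternatives, 24 for both populations together, they ran from 4.29 to 4.79 and from 3.59 to 3.98, all past the threshold.

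Serping1, the inhibitor of C1r and C1s, had 1573, 1361 and 1787 counts in GFP-positive DSS cells, against 1761, 2431 and 2363 in GFP-positive normal cells. The highest DSS library lay just above the lowest normal one. The log2 change was -0.47 (95% interval -0.92 to -0.01, adjusted p = 0.134). In GFP-negative cells Serping1 had 3020, 2755 and 2536 counts with DSS, against 1260, 4039 and 4737 without, a change of -0.06 (-1 to 0.87, adjusted p = 0.941). Normal library 1 stood apart from the other two there, as it did for C4b in the opposite direction. The change was -0.66 without that library (adjusted p = 0.0768) and 0.29 without normal library 3 (adjusted p = 0.696).

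**Figure D2:**
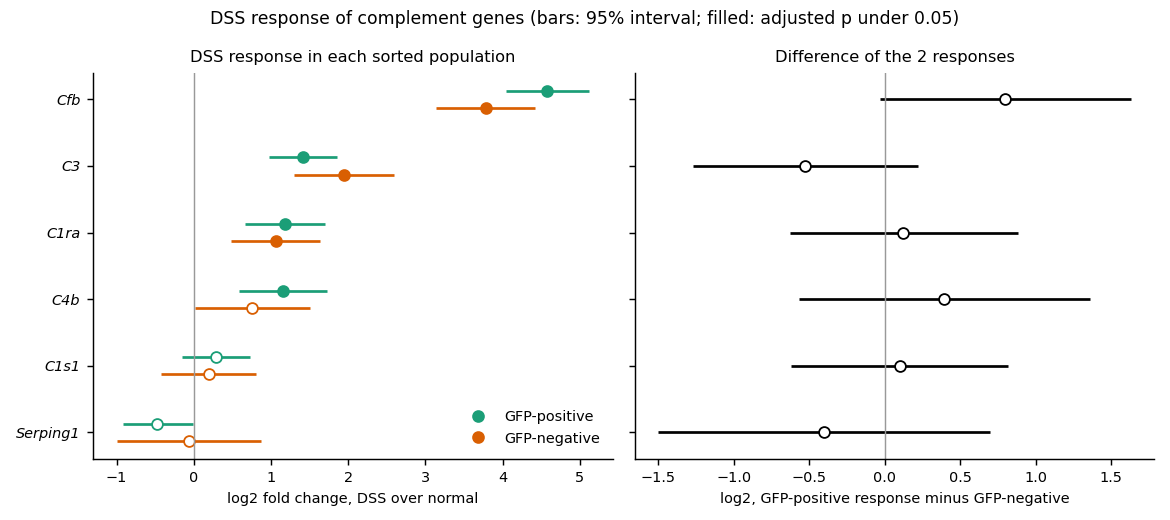
On the left are the log2 fold changes of DSS over normal cells in GFP-positive (green) and GFP-negative (orange) colon cells, and on the right the GFP-positive change minus the GFP-negative one; bars are 95% intervals and filled points have an adjusted p under 0.05. Cfb lies at 4.58 and 3.78, the other changes lie between -0.47 and 1.95, and 0 of the 6 differences is filled.

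Counted together, 4 of 6 genes were higher and 0 lower in GFP-positive DSS cells, where 19.7% of all 12976 tested genes were called (10.2% higher). The median log2 change of the 6 was 1.17, against -0.01 over all genes. In GFP-negative cells 3 of 6 were higher and 0 lower, where 10.3% of 13025 genes were called (6.03% higher), with medians of 0.91 for the 6 and -0.02 over all genes. When libraries were scaled to equal totals, the median of all genes shifted by -0.12 in each comparison. Calls were then 38.5% higher ones in place of 52% for GFP-positive and 44.1% in place of 58.5% for GFP-negative cells, while the calls of the 6 genes did not change. In the authors' deposited table Cfb had an FDR of 0.0202 in GFP-positive and 0.0266 in GFP-negative cells, and the other 5 genes had an FDR of 1 in both. Of all genes, 45 and 76 had an FDR under 0.05 there, far fewer than limma called.

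Whether a gene responded differently in the GFP-positive and GFP-negative populations was tested by the interaction of DSS and GFP over the 12 libraries. By limma 0 of 6 genes passed, where 0.0519% of 13488 genes were called, and 0 of the 6 had an unadjusted p under 0.05. The Cfb response was larger in GFP-positive cells by 0.80 on the log2 scale (95% interval -0.03 to 1.63, adjusted p = 0.651). That of C3 was smaller by 0.53 (difference -0.53, -1.27 to 0.22, adjusted p = 0.738). The intervals of C1ra (-0.63 to 0.88), C4b (-0.57 to 1.36), C1s1 (-0.62 to 0.82) and Serping1 (-1.50 to 0.70) also include 0, and they are too wide to call the responses alike.

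Several of these genes have near copies or overlapping neighbours, which affects what a count of them holds. Over the last 300 bases of the C4b transcript, 299 aligned to the C4a transcript with 98.3% identity, and for C1s1 and C1s2 it was 241 bases with 96.7% identity. C1ra and C1rb shared 36 aligned bases there. C4b against C4a and C1s1 against C1s2 are therefore uncertain where reads end in the shared part, and handling of such reads is not given in the sources used here. For Cfb, the longer gene Gm20547 lies across it on the same strand, at chr17:34856412-34882042. Nelfe, on the opposite strand at chr17:34850391-34856372, ends 2 bases before the end of Cfb.

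By mean, the copies made up a larger share of their pairs with DSS in the sorted colon cells (plot of copy shares). C1rb, a second C1r gene of the mouse, held 18.3% ± 1.43 of the C1rb and C1ra counts in GFP-positive DSS cells and 4.88% ± 1.99 in GFP-positive normal cells (SD, n = 3 each). In GFP-negative cells it held 14.7% ± 3.05 with DSS and 6.04% ± 1.12 without. C1s2, a second C1s gene, held 12.8% ± 0.747 of its pair in GFP-positive DSS cells and 2.56% ± 2.29 in GFP-positive normal cells. The exact permutation test gave a two-sided p = 0.1 for these 3 contrasts, the smallest that 3 against 3 libraries allow, and the groups did not overlap.

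For C1s2 in GFP-negative cells the share was 7.28% ± 2.69 with DSS and 2.83% ± 1.95 without (exact permutation p = 0.2), and the groups overlapped. C4a held 10.3% ± 1.45 in GFP-positive DSS cells and 7.17% ± 0.931 in normal ones, and 10.8% ± 1.66 against 7.05% ± 0.622 in GFP-negative cells (SD, n = 3 each; exact permutation p = 0.1 in both). Across all genes, limma gave C1rb a log2 change of 3.36 (adjusted p = 0.00347) in GFP-positive and 2.47 (adjusted p = 0.000814) in GFP-negative cells. C4a had 1.75 (adjusted p = 0.0043) and 1.44 (adjusted p = 0.00958). C1s2 had 3.18 in GFP-positive cells, just past the threshold (adjusted p = 0.0482), and 1.82 in GFP-negative cells (adjusted p = 0.127), and the difference of its responses did not pass (1.36, adjusted p = 0.792).

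**Figure D3:**
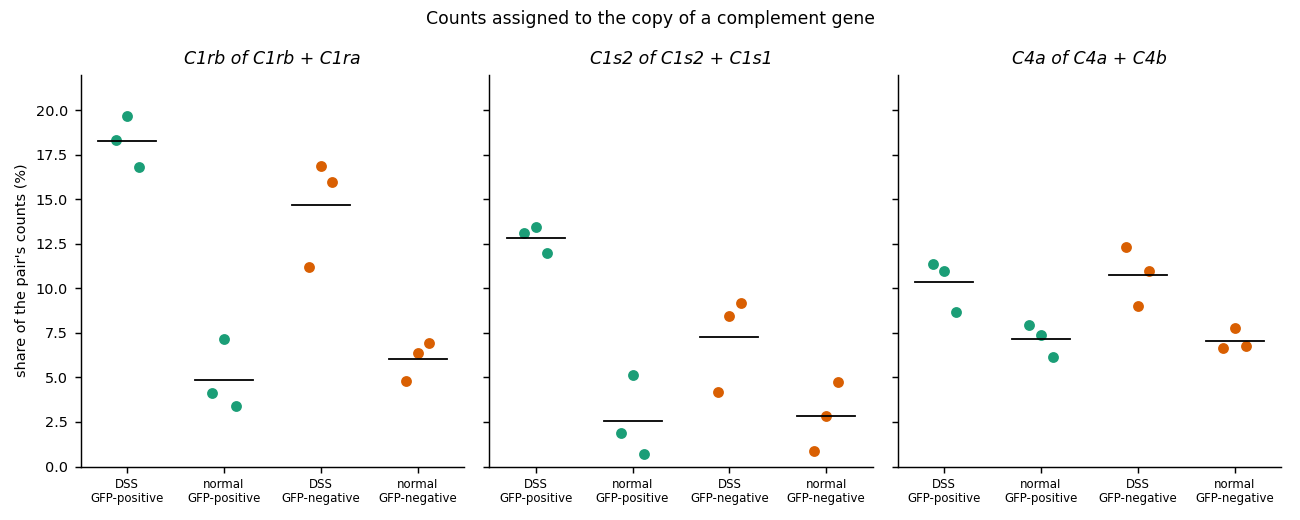
The share of a pair's counts that was assigned to the copy is shown in percent for each library, with lines at group means, for DSS and normal cells of each sort. The C1rb share lies between 16.8 and 19.7 in GFP-positive DSS libraries and between 3.39 and 7.15 in GFP-positive normal ones.

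Cfb counts ran in step with those of its neighbours. Gm20547 was at 36.6% to 61.5% of Cfb in each colon library and at 34.3% to 40.6% in each small intestine library. Nelfe, which encodes a subunit of the negative elongation factor of transcription, was within 11 counts of Gm20547 in every colon library. In the small intestine it was read at 22 to 59 counts, 0.533% to 3.17% of Cfb. Reads of Cfb, Gm20547 and Nelfe thus cannot be told apart by these colon counts, and the strand setting of the counting is not given in the sources used here. As DSS over normal, Gm20547 had a log2 change of 4.03 (adjusted p = 1.21e-07) in GFP-positive and 3.74 (adjusted p = 1.26e-05) in GFP-negative cells, next to 4.58 and 3.78 for Cfb.

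The comparison of GFP-positive with GFP-negative cells asked how cells marked by ColVI-cre differ from the unmarked cells sorted beside them. C3, C4b and Cfb were lower in GFP-positive cells, in normal and in DSS colon, while the protease genes C1s1 and C1ra passed in neither. In normal colon 3 of 6 genes were lower and 0 higher, where 5.98% of all genes were called (3.01% lower), a total of 798 that was 461, 514 and 454 without GFP-negative library 2 or GFP-positive library 1 or 3. C4b had 1076, 688 and 474 counts in GFP-positive cells, against 6740, 3231 and 3178 in GFP-negative cells (log2 -2.54, SE 0.39, adjusted p = 0.0028). Cfb had 204, 237 and 117, against 735, 1089 and 1091 (log2 -2.42, SE 0.31, adjusted p = 0.00111). For both genes every GFP-positive library lay below every GFP-negative one, and so it was for C3 (-2.54). C1s1 had -0.14 (95% interval -0.79 to 0.51), C1ra -0.44 (-1.12 to 0.24) and Serping1 -0.41 (-1.41 to 0.59), with adjusted p of 0.875, 0.539 and 0.732. In the authors' deposited table for this contrast the FDR was 0.189 for C3, 0.2257 for C4b and 0.1825 for Cfb, where 94 of all genes were under 0.05.

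In DSS colon 4 of 6 genes were lower in GFP-positive cells and 0 higher, where 17.1% of all genes were called (8.9% lower). C4b had 975, 1218 and 1200 counts in GFP-positive cells, against 4069, 6209 and 4902 in GFP-negative cells (log2 -2.15, SE 0.20, adjusted p = 2.5e-06). Cfb had 3252, 3279 and 2743, against 7188, 10681 and 10967 (log2 -1.62, SE 0.21, adjusted p = 6.15e-05). Serping1 had 1345, 1158 and 1526, against 2573, 2338 and 2158 (log2 -0.82, SE 0.18, adjusted p = 0.00524). These groups did not overlap, but the Serping1 call was lost when all 3 DSS colon groups shared 1 fit (adjusted p = 0.0715). C1s1 had -0.05 (95% interval -0.42 to 0.33, adjusted p = 0.891) and C1ra -0.32 (-0.70 to 0.06, adjusted p = 0.247). In the authors' deposited table for this contrast, C3 had an FDR of 0.00148, C4b one of 0.0292 and Cfb one of 0.325.

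In the small intestine 0 of 6 genes passed in any contrast between sorted cells. By limma, 0.894% of all genes were called for GFP-high against GFP-negative cells, 0.675% for GFP-low against GFP-negative cells and 0.384% for GFP-high against GFP-low cells. C3 had 6643, 5011 and 3750 counts in GFP-high cells and 8012, 10841 and 5887 in GFP-low cells, against 11801, 12175 and 12710 in GFP-negative cells. Each GFP-negative library was the higher in both cases, with log2 changes of -1.29 (unadjusted p = 0.00133, adjusted p = 0.09) and -0.61 (0.0431, 0.282). C4b had 3527, 5011 and 2957 in GFP-high cells and 4235, 6787 and 3780 in GFP-low cells, against 7313, 9777 and 11038 in GFP-negative cells. Its groups did not overlap either, and its changes were -1.31 (adjusted p = 0.101; 0.0417 with all 4 groups in 1 fit) and -0.95 (adjusted p = 0.145).

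Serping1 had 1381, 910 and 2260 counts in GFP-high cells and 3292, 3856 and 3733 in GFP-low cells, against 2165, 1803 and 1082 in GFP-negative cells. GFP-low cells were above both other groups, by 1.16 over GFP-negative (unadjusted p = 0.00201, adjusted p = 0.0957), and GFP-high cells were at -1.35 against them (unadjusted p = 0.00212, adjusted p = 0.207). C1s1 was read at 1943, 1513 and 2524 in GFP-high, 3170, 3444 and 2811 in GFP-low and 2321, 2645 and 1270 in GFP-negative cells. Cfb had 5036, 2005 and 2109 in GFP-high, 5593, 6483 and 4362 in GFP-low and 4091, 4131 and 4403 in GFP-negative cells, with GFP-high library 1 apart from the other two. C1ra had 2327, 1765 and 2106 in GFP-high, 2836, 5872 and 2290 in GFP-low and 1957, 2244 and 2623 in GFP-negative cells, with GFP-low library 2 far above the rest. At an unadjusted limma p under 0.05 were C3 and C4b for GFP-high, and C3, C4b and Serping1 for GFP-low, against GFP-negative cells. For GFP-high against GFP-low cells they were C1s1, Cfb and Serping1. None passed after adjustment in the fits of the groups compared. The share of all genes at that unadjusted threshold is not given here, so these names cannot be set against a background.

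Genes of liver plasma proteins were present in sorted small intestine libraries, and hepatocytes also make complement. Summed over Alb, Ttr, Apoa2, Fga, Fgb, Serpina1a and Serpina1b, a list drawn up after these values were seen, counts were 21820, 3273 and 21766 in GFP-high cells, 41361, 6940 and 20447 in GFP-low cells and 5467, 19533 and 29 in GFP-negative cells. Unsorted libraries 2 and 3 had 540 and 12, and the colon libraries 0 to 128. Of the 7 genes, only 1 was listed for DSS colon and 3 for normal colon, so the colon sums cover a part of the list. The one sorted small intestine library almost free of them, GFP-negative library 3, had the highest C3 (12710), C4b (11038), C1ra (2623) and Cfb (4403) of its group and the lowest C1s1 (1270) and Serping1 (1082). Further complement genes of the liver were read there as well. Mbl2, a recognition lectin, averaged 287, 479 and 155 in GFP-high, GFP-low and GFP-negative cells against 9 in unsorted cells, and C8g of the terminal pathway 70.3, 145 and 36.7 against 0.5. The part of liver RNA in the levels of the 6 genes in the small intestine was not tested.

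**Figure D4:**
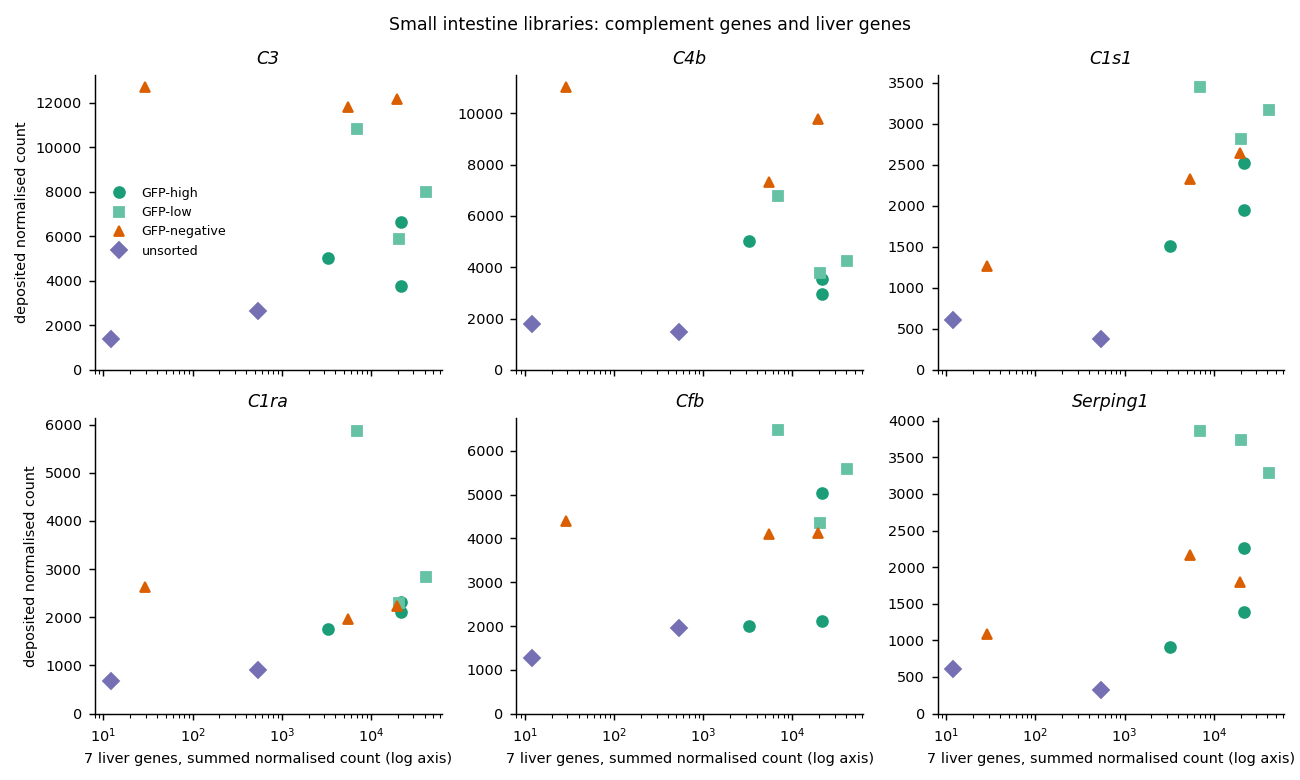
Each point is 1 small intestine library, with the summed normalised count of 7 liver genes on a log axis and the count of a complement gene on a linear axis that starts at 0. GFP-negative library 3 has 29 summed liver counts and 12710 of C3; GFP-low library 1 has 41361 and 8012.

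The sorted groups were also set against unsorted cells, in which the genes of leukocytes were higher. Summed levels of macrophage and monocyte markers were 33.8 to 197 CPM in the sorted libraries and 959 to 2934 in the unsorted ones, and neutrophil markers in unsorted DSS colon were 2327 to 4343. In DSS colon 6 of 6 genes were higher in GFP-negative than in unsorted cells, where 33% of all genes were called (13.7% higher). In GFP-positive cells C1s1 and C1ra were higher and C3 and Cfb lower, where 37.1% were called (15.8% higher and 21.3% lower). In normal colon 4 of 6 (C3, C4b, C1s1, C1ra) were higher in GFP-negative than in unsorted cells, where 18.8% were called (5.81% higher). In GFP-positive cells of normal colon C1s1 was higher and Cfb lower, where 21.8% were called (7.72% higher and 14.1% lower). In the authors' deposited tables, the FDR was under 0.05 for C3, C4b and C1ra in GFP-negative DSS cells (0.00521, 0.00534 and 0.0268), among 1625 genes. In GFP-negative normal cells it was so for C3 and C4b (0.0201 and 0.00958), among 1209 genes. In GFP-positive cells it was so for none of the 6 genes, with or without DSS, where 1823 and 1214 genes were under 0.05.

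Cfb lay on either side of the unsorted level in DSS colon. It had 7188, 10681 and 10967 counts in GFP-negative cells and 3252, 3279 and 2743 in GFP-positive cells, against 5648, 4627 and 5283 in unsorted cells. GFP-negative cells were above the unsorted ones (log2 0.87, adjusted p = 0.0232) and GFP-positive cells below them (-0.75, adjusted p = 0.0158). Leaving out 1 library ended the first call for unsorted library 2 and GFP-negative libraries 2 and 3 (adjusted p of 0.0706, 0.0956 and 0.11), and the second for GFP-positive libraries 1 and 3 (0.054 and 0.0838). The lower C3 of GFP-positive DSS cells (-0.64, adjusted p = 0.0269) was lost without any one GFP-positive library or unsorted library 2 (adjusted p of 0.059 to 0.116). C1s1 had 1727, 1803 and 1627 counts in GFP-positive and 2073, 1667 and 1614 in GFP-negative DSS cells, against 616, 674 and 453 in unsorted cells. Both sorted groups lay above the unsorted one without overlap (1.58, adjusted p = 0.000114, and 1.63, adjusted p = 0.000273).

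In the normal colon the highest C1s1 and C1ra values were also in sorted cells. C1ra had 1701, 3053 and 1767 counts in GFP-positive and 2448, 2805 and 3357 in GFP-negative cells, against 1626, 647 and 789 in unsorted cells. The sorted groups overlapped each other, and both lay above the unsorted one. The GFP-negative change of 1.6 passed (adjusted p = 0.0206), and the GFP-positive one of 1.15 did not (adjusted p = 0.0748). The GFP-positive one passed with equal totals (1.28, adjusted p = 0.0494) and without unsorted library 1 (1.55, adjusted p = 0.0121). C1s1 changes were 1.42 (adjusted p = 0.0117) in GFP-positive and 1.56 (adjusted p = 0.013) in GFP-negative cells. The GFP-positive C1s1 call was lost without GFP-positive library 2 (adjusted p = 0.0569). Without GFP-negative library 2 or 3 the GFP-negative calls of C1s1 (0.0651 and 0.0532) and C1ra (0.0736 and 0.0687) were both lost, and that of C1ra also without unsorted library 2 or 3 (0.0766 and 0.0719).

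In the small intestine 5 of 6 genes were higher in GFP-high cells than in unsorted cells, where 17.2% of all genes were called (6.13% higher), and Cfb did not pass (0.82, adjusted p = 0.275). In GFP-low and in GFP-negative cells 6 of 6 were higher, where 22.8% (9.13% higher) and 11.5% (4.58% higher) were called. In the authors' deposited tables for these contrasts, the lowest FDR of the 6 genes was 0.0568, for Serping1 in GFP-low cells. Of all genes, 835 for GFP-high, 1000 for GFP-low and 558 for GFP-negative cells had an FDR under 0.05. Serping1 in unsorted libraries 2 and 3 was at 323 and 604, below all 9 sorted libraries, and in GFP-low cells it was 3.03 higher on the log2 scale (adjusted p = 0.000572). The liver genes named above summed to 29 to 41361 counts in the sorted libraries and to 12 and 540 in the unsorted ones. Their part in these contrasts was not tested. These contrasts also rest on 2 unsorted libraries. Without unsorted library 2, the numbers of genes called were 0 for GFP-high, 2 for GFP-low and 0 for GFP-negative cells, and without unsorted library 3 they were 0, 2 and 2. Leaving out GFP-high library 1, 2 or 3 left 1, 3 and 1 of the GFP-high calls, and leaving out GFP-negative library 1 left 3 of the GFP-negative ones.

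Other complement genes were tested from a list of 49 (plot of other complement genes). In GFP-positive cells 20 of them could be tested, C1s2 as 2 gene entries with the same counts, and of these 21 entries 9 were higher and 2 lower with DSS, where 19.7% of all genes were called (10.2% higher). In GFP-negative cells 4 of 20 entries, from 19 genes, were higher and 2 lower, where 10.3% of all genes were called (6.03% higher). Their median log2 changes were 0.07 and 0.40, against -0.01 and -0.02 over all genes.

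Among recognition genes, C1qa, a chain of C1q, averaged 25.7 ± 6.51 counts in GFP-positive DSS cells and 5 ± 2 in normal ones (SD, n = 3 each), a log2 change of 2.18 (adjusted p = 0.00517). It is a macrophage marker as well, at few counts here. C2, the partner of C4 in the classical C3 convertase, averaged 71.7 ± 5.51 against 25.7 ± 3.06 in GFP-positive and 302 ± 26.4 against 59.7 ± 25.8 in GFP-negative cells, DSS against normal (SD, n = 3 each). Its log2 changes of 1.45 (adjusted p = 0.00211) and 2.42 (adjusted p = 0.000881) passed in both populations. The 3' end of C2 (chr17:34862604-34898265, minus strand) lies within the span of Gm20547 on the same strand. What this adds to C2 counts was not tested. Cfd and Cfp, which serve the alternative route, were at 2 to 11.3 counts on average; Cfd was too low to test and Cfp did not pass.

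Of the regulators, Cd55, a membrane protein that breaks up convertases, fell in both populations. It averaged 41.3 ± 10.3 with DSS and 114 ± 35.2 without in GFP-positive cells, and 388 ± 93.6 with DSS and 975 ± 359 without in GFP-negative cells (SD, n = 3 each). The log2 changes were -1.42 (adjusted p = 0.00537) and -1.29 (adjusted p = 0.0188). Cr1l, the mouse membrane regulator Crry, fell in GFP-negative cells (-0.91, adjusted p = 0.0403) and had -0.49 in GFP-positive cells (adjusted p = 0.127).

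Clu, encoding clusterin, went in opposite directions. It averaged 25.7 ± 5.51 with DSS and 57.7 ± 13.3 without in GFP-positive cells, and 61.7 ± 14.5 with DSS and 25 ± 8 without in GFP-negative cells (SD, n = 3 each). Both changes passed (-1.13, adjusted p = 0.0157, and 1.29, adjusted p = 0.0333), and the test of their difference, -2.42, just missed the threshold (adjusted p = 0.0556). Among receptors, Itgam (2.12, adjusted p = 0.00316) and C1qbp (0.95, adjusted p = 0.00467) rose in GFP-positive cells, and C5ar1, C5ar2 and Cd93 did not pass. C3ar1, the receptor of C3a, averaged 2.33 to 4.33 counts in the sorted colon groups and was too low to test. C6, of the terminal pathway, averaged 0.333 to 5 counts there and was too low as well.

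**Figure D5:**
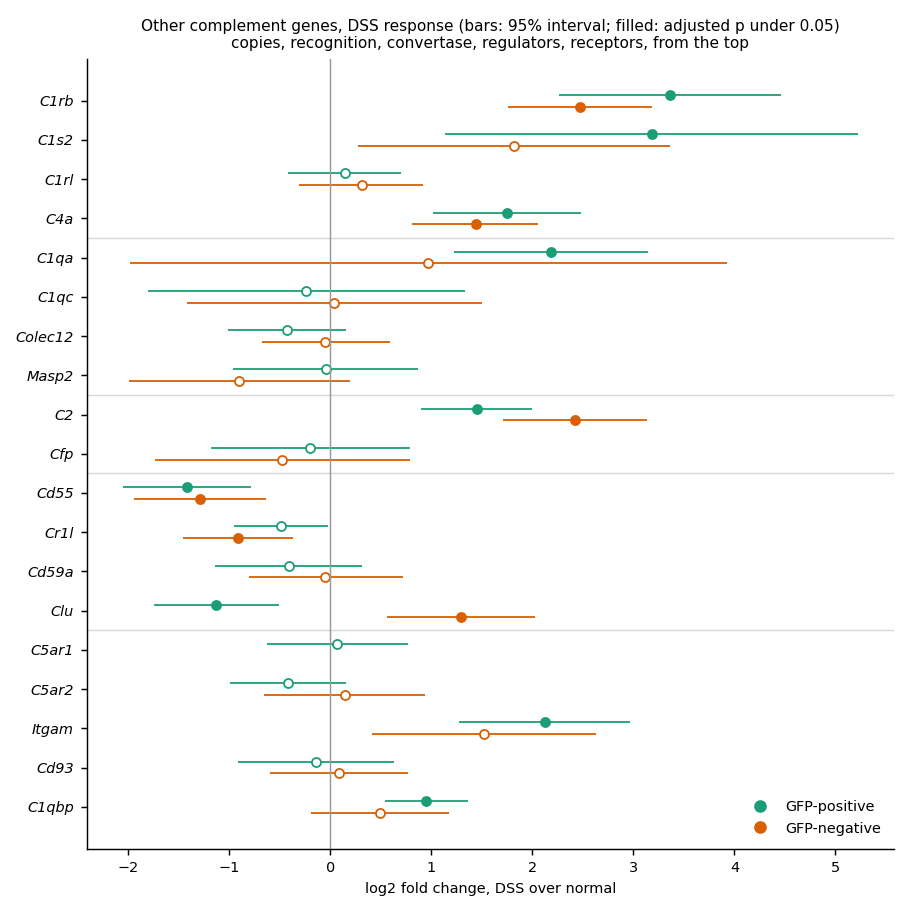
Log2 fold changes of DSS over normal are shown for other complement genes that could be tested, in GFP-positive (green) and GFP-negative (orange) colon cells, with 95% intervals and filled points for an adjusted p under 0.05. C1rb has the highest value at 3.36, Cd55 lies at -1.42 and -1.29, and Clu at -1.13 and 1.29.

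Gene lists of interferon and acute phase responses, and cell type markers, moved in the same contrasts, where 19.7% of all genes were called in GFP-positive and 10.3% in GFP-negative cells. Of 25 interferon response genes, 15 were higher and 1 lower in GFP-positive DSS cells, and 17 higher and 1 lower in GFP-negative ones. Their median log2 changes were 1.32 and 2.21, against -0.01 and -0.02 over all genes. Of 19 acute phase and NF-kB target genes 8 were higher and 2 lower in GFP-positive cells, and 11 higher and 1 lower in GFP-negative cells, with median log2 changes of 1.61 and 1.95. Saa3, a serum amyloid A gene, averaged 4398 ± 639 with DSS and 11 ± 1.73 without in GFP-positive cells and 8086 ± 1440 with DSS and 8 ± 7.81 without in GFP-negative cells (SD, n = 3 each). Socs3, an inhibitor of cytokine signalling, fell in both (-1.31, adjusted p = 0.00325, and -1.70, adjusted p = 0.0051).

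Of 11 mesenchymal markers 0 were higher and 8 lower in GFP-positive DSS cells, where 19.7% of all genes were called, among them Col1a1 (-1.10, adjusted p = 0.00346) and Col3a1 (-1.34, adjusted p = 0.00169). Their summed level was 9252 to 10862 CPM there, against 19166 to 24981 in GFP-positive normal cells. In GFP-negative cells 1 of 11 was lower, where 10.3% were called, and the sums of 17732 to 26724 with DSS and 20520 to 28028 without overlapped. Neutrophil markers summed to 42.6 to 94.9 CPM with DSS and 20.7 to 53.1 without in GFP-positive cells, and to 97.9 to 121 with DSS and 13.4 to 40.2 without in GFP-negative cells. Of that list S100a8 and S100a9 passed in both populations (adjusted p of 2.3e-05 to 0.00213). Ly6g, at few counts, passed in GFP-negative cells (2.76, adjusted p = 0.0497). Csf3r and Cxcr2 passed in neither, with log2 changes of -0.21 and -0.13 in GFP-positive and 1.08 and 0.47 in GFP-negative cells. Retnlg was too low to test. Macrophage and monocyte markers summed to 62.2 to 91.0 with DSS and 37.6 to 68.1 without in GFP-positive cells, and to 45.5 to 99.3 with DSS and 33.8 to 59.3 without in GFP-negative cells. Of the lymphocyte and plasma cell list 0 of 3 tested passed in either population; Jchain, of plasma cells, averaged 374 ± 189 with DSS and 1606 ± 1479 without in GFP-negative cells (SD, n = 3 each; adjusted p = 0.0805). The part of these shifts in the complement values was not tested.

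The genes whose levels were most like those of each member were found by Pearson's r of log2 values over the 12 sorted colon libraries, among 13488 genes. These libraries share 4 groups, so r is a description of group differences and carries no p. C3 was most like Gda (0.987), Igfbp4 (0.98) and Serpine2 (0.97), and C4b like Rassf2 (0.988), Mgp (0.976) and its copy C4a (0.973). C1ra was most like its copy C1rb (0.974), and Cfb like the overlapping Gm20547 and Nelfe (0.998 each) and then Rtn4rl2 (0.984). For C1s1 the highest was Zbtb33 (0.886) and for Serping1 Tac1 (0.916). Between members, r was 0.95 for Cfb and C1ra, 0.94 for C3 and C4b, 0.69 for C1ra and C1s1 and 0.04 for Cfb and Serping1. From one of the first pairs to the other, r was 0.82 for C3 and Cfb, 0.71 for C3 and C1ra, 0.71 for C4b and Cfb and 0.57 for C4b and C1ra. The levels of Cfb and C1ra thus ran together across these libraries, as did those of C3 and C4b, and the pairs ran partly with each other. Serping1 had r of 0.04 to 0.33 with the genes of these pairs.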

How the data were processed

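Groups were taken from sample titles. Per the labels' protocols, total RNA with an integrity number over 7 was made into QuantSeq 3' libraries and sequenced on an Ion Proton. The submitters' processing notes name TopHat2, Bowtie2, mm10 and DESeq; for the counting program, annotation, strand setting and reads with several hits, the step is not given in the sources used here. The 14 tables listed from 15019 to 18042 genes. The deposited per-sample values are normalised counts per the file headers and hold whole numbers, so they were treated as a score and not as raw counts. Log2 fold changes of group means, p-values and FDR are the authors' own per the file headers and are printed where named as such. A further 162 per-sample columns were not used. Results of some listed genes are not reported here.

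Tests were made here with limma (version 3.58.1, R 4.3.3), fitted to log2(value + 1) with a variance trend and robust variance. A gene entered if either group averaged 10 or more, and p-values were adjusted by Benjamini-Hochberg over all genes tested, with a threshold of 0.05. A fold change on this scale understates the change of low genes. Only the groups compared entered a fit, except for the interaction, with 4 groups. Ratios of the common scale to each library's own scale were 0.836 to 0.844 (normal) and 1.17 to 1.18 (DSS), with 0 of 6 genes off by over 2%. The fits were tested on simulated data, and 0 pairs of libraries held identical values. Named genes are the 6, their copies, listed complement genes past the threshold in a DSS contrast, and the 3 genes most like each member; other genes named, among them Saa3, Socs3, Col1a1, Col3a1 and the liver genes, were picked after their values were seen. Members and lists were chosen with earlier results of these data known. Alternatives were a pseudocount of 5, no filter, equal totals, no trend, a replicate block, all groups in 1 fit and leaving out each library.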

Additional observations from a re-analysis of the deposited data

How the results depend on the processing

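Of 1098 values of the 6 genes under alternatives, 1014 kept their side of the threshold, 80 were no longer past it, 4 came to pass it and 0 of those past it changed sign. The count of genes called moved by over 1.5 times in several comparisons, most of them against unsorted cells. For GFP-high against GFP-negative small intestine it was 1 with all groups in 1 fit, in place of 0. For GFP-high against unsorted small intestine it was 3 with no filter and 1 with neither trend nor robust variance, in place of 5. For GFP-negative against unsorted small intestine it was 2 without the trend and 2 with the replicate block, in place of 6. Leaving out 1 library gave 1 to 3 (2 with all) for GFP-positive and 2 to 4 (4) for GFP-negative against unsorted normal colon, and 2 to 4 (4) for GFP-positive against unsorted DSS colon. It gave 0 to 3 (5), 2 to 6 (6) and 0 to 6 (6) for GFP-high, GFP-low and GFP-negative against unsorted small intestine. Where 1 library of a group is left, it is assumed to vary like the other group. The cause of these changes was not tested, except that fewer libraries entered.

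Counts over all genes moved more. The DSS response of GFP-negative cells gave 1341 genes, 2068 with all groups in 1 fit and 360 to 1882 without 1 library (360 and 477 without GFP-negative DSS library 2 or 3, 704 without normal library 2), and that of GFP-positive cells 2555 and 1253 to 2611. The difference of responses gave 7, 11 with a pseudocount of 5 and 2 to 15 without 1 library. For sorted small intestine groups, GFP-high against GFP-negative gave 111, 216 in 1 fit, 21 without the trend and 24 to 104 without 1 library. GFP-low against GFP-negative gave 84, 143 with a pseudocount of 5, 44 with equal totals, 43 with the block, 0 without the trend and 6 to 76 without 1 library. GFP-high against GFP-low gave 47, 91 with the block, 21 in 1 fit, 0 without the trend and 14 to 52 without 1 library. Against unsorted small intestine, 1 fit gave 1071 in place of 2300 for GFP-high and 1309 in place of 3067 for GFP-low cells. GFP-negative cells gave 1543, 960 without the trend and 845 with the block. Leaving out 1 library gave 0 to 2524 for GFP-high, 210 to 2983 for GFP-low and 0 to 1627 for GFP-negative cells. An alternative chosen after seeing the data left out GFP-negative libraries 1 and 2, which hold liver genes; it gave 2823 from 1 GFP-negative library against 2 unsorted ones, so it has no replicates on one side and supports nothing on liver RNA. For normal colon, GFP-positive against GFP-negative cells gave 798 and 454 to 888 without 1 library, GFP-positive against unsorted cells 3197 and 2020 to 4168, and GFP-negative against unsorted cells 2753 and 1554 to 3367. For DSS colon, GFP-positive against GFP-negative cells gave 2152 and 1431 to 2040. GFP-negative against unsorted DSS colon had 41.5% of its calls higher, and 30.4% with equal totals.

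Deviations of same-numbered libraries correlated at -0.325 to 0.388, and in 0 comparisons of 3 pairs were all above 0.1. For GFP-negative against unsorted DSS colon the values were 0.388, 0.056 and 0.305. With so few libraries per group, these values cannot show whether same-numbered samples share a mouse. The replicate block changed the count of the 6 genes called in the 1 contrast given. Depth limits genes near 10 counts, such as C1qa, more than the 6 genes.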

Other observations

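Complement genes of the lectin and terminal pathways were read in sorted small intestine libraries, which also hold liver genes. Hc, which encodes C5, averaged 62.3, 171 and 74.7 normalised counts in GFP-high, GFP-low and GFP-negative cells and 2 in unsorted cells. C9, which forms the pore of the terminal complex, averaged 25.7, 81 and 24.7 in these sorted groups and 4.5 in unsorted cells. Vtn, encoding vitronectin, averaged 270, 364 and 167, against 9 in unsorted cells. C6 had 70.3, 46.3 and 30.3, against 27.5.

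In unsorted colon, the C3a receptor gene C3ar1 averaged 109 counts with DSS and 190 in normal tissue, and C1qb 327 and 375, on separate scales that were not tested against each other. In sorted colon cells C3ar1 averaged 2 to 4.67 and C1qb 2.67 to 5.67 on these scales. Of 8 pericyte markers, 4 were higher and 1 lower in GFP-positive DSS cells, and 3 higher and 1 lower in GFP-negative DSS cells, where 19.7% and 10.3% of all genes were called in either direction.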
